A study of Mus musculus with 40 samples.

Results

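The chromosome 14 neighbourhood of Sftpd, the gene for surfactant protein D (SP-D), was measured in the jejunum of knockout mice and their littermates. The Sftpd transcript cluster, the array's unit of roughly 1 gene or transcript, spans chr14:41172212-41185198 on the minus strand. All clusters of the same chromosome that overlapped it after widening by 5 Mb on each side were taken, with or without a gene symbol, and Sftpd, Sftpa1, Mbl1 and the eosinophil-associated ribonuclease clusters (symbols beginning with Ear) were left out. Of 281 clusters in the window 12 were left out, so 269 of the 65956 clusters on the array are described, lying between positions 36612117 and 46084957. The rule itself uses position and symbol only, but it was set with earlier results of these data known.

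Each of 40 adult female mice, 10 to 12 weeks old, gave 1 Mouse Transcriptome Array. The 8 groups held 5 mice each: Sftpd-/- (KO) mice and Sftpd+/+ (WT) littermates, each after a single intraperitoneal dose of doxorubicin (20 mg/kg) or an equal volume of saline, with the jejunum taken on day 3 or on day 7. The groups are called KO-Dox3, KO-NaCl3, KO-Dox7, KO-NaCl7 and WT-Dox3, WT-NaCl3, WT-Dox7, WT-NaCl7. The KO line had been backcrossed for more than 10 generations onto C57BL/6N, and genotypes were typed by PCR. Litters are not given in the labels, so mice of a group may share one, and the strain of the embryonic stem cells in which the allele was made is not given in the sources used here.

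SP-D is a collectin, a secreted pattern-recognition protein of mucosal surfaces that binds microbial sugars. Genes close to a targeted gene are inherited together with it, so that a knockout and its WT littermates can differ in DNA along the flanking chromosome as well as at the targeted gene, and backcrossing shortens such a segment without setting its ends. Probes of an expression array are short sequences made to a reference strain, and a difference in transcript abundance and a difference in the DNA under a probe both change the signal. No DNA sequence or genotype of the flanking region was used here, so these cannot be told apart.

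The targeted gene itself could not serve as a check of the labels. The Sftpd cluster had a log2 signal between 3.85 and 4.31 (median 4.08) in the 20 KO mice, against 3.83 to 4.24 (median 4.06) in the 20 WT mice. The ranges overlap almost fully, and the difference of 0.05 ± 0.04 (SE) on the log2 scale did not pass the test (adjusted p = 0.489, limma). All values lie below 6.99, the highest signal of the 23 background probe sets on any array, which is used as the background limit throughout, and which bases of the gene are deleted in the KO mice relative to the probes is not given in the sources used here. Array medians ran from 4.38 to 4.66 and replicates of a group correlated at 0.975 to 0.995. Of 44 markers of jejunal and other cell types 41 were found: all 6 enterocyte, 2 Paneth cell, 3 goblet cell and 4 smooth muscle markers lay above background, the lung, exocrine pancreas and retina markers did not, and 1 of the 41 passed the KO against WT test, the dim retinal marker Pde6b.

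A cluster is called changed where limma's moderated test gave an adjusted p below 0.05, with the Benjamini-Hochberg adjustment taken across the 65956 clusters. Averaged over both treatments and both days, 19 of the 269 clusters differed between KO and WT mice (7.06%), against 1288 of all clusters on the array (1.95%) and 88 of the 2547 clusters of chromosome 14 outside the window (3.46%). Among the 269, 3 were higher in KO mice, against 0.593% of all clusters, and 16 were lower, against 1.36% of all clusters. The 3 that were higher belong to 2 genes, Fam213a and Ghitm. Leaving out single mice moved the count of 19 between 11 and 35, while the share of all clusters called moved between 0.717% and 3.59%; the share among the 269 was the larger in each of the 40 cases. After a further quantile normalization of the arrays the count was 5 (0.224% of all clusters), and with the spread of each array's signals as a covariate it was 2 (0.0318% of all). With each array centred on its median it was 15 (5.58%, against 3.51% of all). By the mean over all 40 arrays, 31 clusters lay above the background limit and 3 of them differed (9.68%, against 1.91% of all such clusters), all higher in KO mice. Of the 238 that did not, 16 differed (6.72%, against 1.96% of all such clusters), all lower in KO mice.

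**Figure D1:**
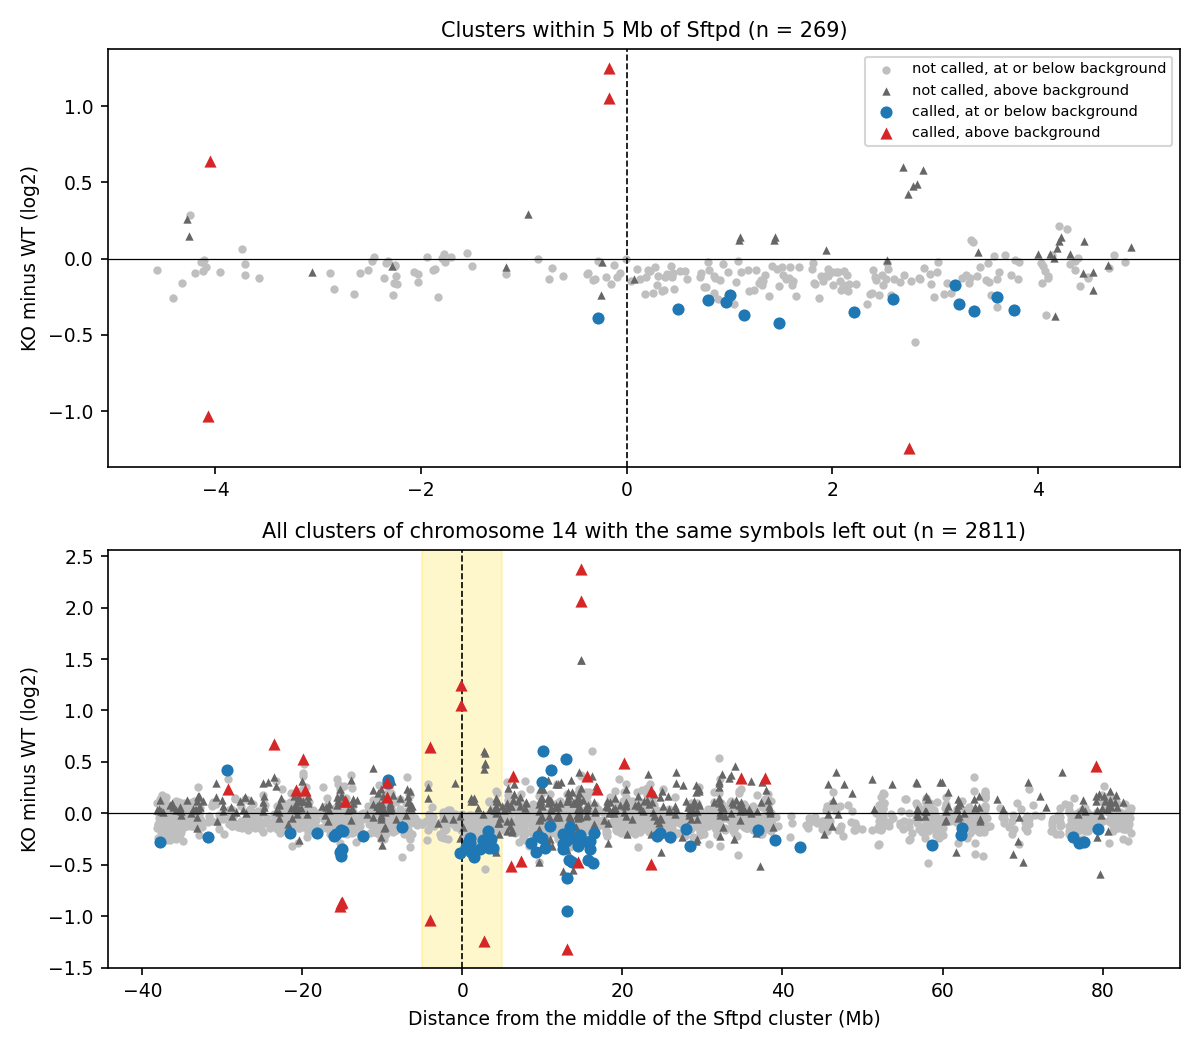
Difference between KO and WT mice (log2, averaged over treatment and day) of each cluster against its distance from the middle of the Sftpd cluster in Mb. The top shows the 269 clusters described, and the bottom shows chromosome 14 with the same symbols left out (window shaded). Triangles had a mean above the background limit in at least 1 group, and coloured points passed the test. Among the 269, the largest differences that passed the test are those of 5 clusters. Fam213a (1.25) ends 158.4 kb to the left of Sftpd, and the cluster inside it (1.05) lies within its span. Ghitm (0.64) and 2610528A11Rik (-1.03) lie about 4 Mb to the left of Sftpd, and the cluster of 9930105H17Rik and Gm8113 (-1.24) lies to its right.

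The start regions of Fam213a, Ghitm and 2610528A11Rik are printed. They are the clusters with 1 symbol that passed the test and had a mean above the background limit in at least 1 group. For 2610528A11Rik this held in WT groups only. The sequences are RefSeq windows of 300 bases in GRCm38.p6, from 250 bases before to 50 after an annotated start, each on the minus strand and written 5′ to 3′. Capitals mark matches, on either strand, to 4 common promoter motifs: the TATA box (TATAAA), the CCAAT box (CCAAT), the GC box (GGGCGG) and an E box (CACGTG); overlaps between motifs were allowed. RefSeq lists Fam213a as Prxl2a, with 5 such windows, of which the one farthest upstream and one that ends just below the unnamed cluster inside the gene are shown. On the minus strand the unnamed cluster lies upstream of that inner start. The windows are chr14:41013784-41014083 and chr14:41008217-41008516 for Fam213a, chr14:37135273-37135572 for Ghitm (the first of 3) and chr14:37110052-37110351 for 2610528A11Rik.
Fam213a, upstream start: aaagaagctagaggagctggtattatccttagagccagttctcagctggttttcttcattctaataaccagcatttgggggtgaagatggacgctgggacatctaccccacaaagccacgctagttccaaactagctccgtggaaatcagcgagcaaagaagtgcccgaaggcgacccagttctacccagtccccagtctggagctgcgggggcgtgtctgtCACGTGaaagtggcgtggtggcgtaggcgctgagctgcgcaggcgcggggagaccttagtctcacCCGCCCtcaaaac
Fam213a, inner start: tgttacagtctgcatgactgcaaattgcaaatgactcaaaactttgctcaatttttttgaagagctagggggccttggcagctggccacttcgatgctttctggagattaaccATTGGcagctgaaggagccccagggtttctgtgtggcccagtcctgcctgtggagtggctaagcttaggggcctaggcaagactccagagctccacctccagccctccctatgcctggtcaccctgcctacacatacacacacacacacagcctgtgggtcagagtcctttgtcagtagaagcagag
Ghitm: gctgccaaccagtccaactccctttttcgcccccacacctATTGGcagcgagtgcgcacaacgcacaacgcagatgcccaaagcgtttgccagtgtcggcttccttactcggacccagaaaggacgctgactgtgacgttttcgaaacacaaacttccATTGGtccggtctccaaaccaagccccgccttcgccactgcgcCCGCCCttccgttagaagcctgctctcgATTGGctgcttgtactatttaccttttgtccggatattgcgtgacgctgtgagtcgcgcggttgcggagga
2610528A11Rik: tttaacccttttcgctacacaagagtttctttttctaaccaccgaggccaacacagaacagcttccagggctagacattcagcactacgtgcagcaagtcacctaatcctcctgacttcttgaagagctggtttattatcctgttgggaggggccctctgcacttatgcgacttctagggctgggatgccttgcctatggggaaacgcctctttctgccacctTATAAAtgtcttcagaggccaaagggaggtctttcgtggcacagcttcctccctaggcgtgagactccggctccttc

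The windows share no motif common to all. The upstream window of Fam213a held 1 GC box match and 1 E box match, and its inner window 1 CCAAT match. Ghitm held 3 CCAAT matches and 1 GC box match, and 2610528A11Rik held 1 TATA box match. Of 32851 RefSeq windows of this length, 13.6% held a TATA box match, 37.4% a CCAAT match, 35.7% a GC box match and 7.15% an E box match, so a match to either of the middle motifs is common.

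Fam213a (TC1400001785.mm.1, chr14:40993735-41013788, minus strand), which encodes a peroxiredoxin-like protein with antioxidant activity, was higher in KO mice. The cluster ends 158.4 kb to the left of Sftpd. In saline mice on day 3 its log2 signal was 11.57, 11.66, 11.70, 11.90 and 12.60 in KO mice, against 10.15, 10.33, 10.56, 10.67 and 11.17 in WT mice. On day 7 it was 11.27, 11.37, 11.77, 11.82 and 11.94 in KO mice given saline, against 10.16, 10.18, 10.59, 10.83 and 10.98 in WT mice given saline. Every KO mouse lay above every WT mouse in both comparisons. After doxorubicin the values on day 3 were 11.50, 11.66, 11.80, 11.86 and 11.91 in KO mice, against 10.62, 10.72, 10.76, 11.05 and 11.23 in WT mice. On day 7 after doxorubicin they were 11.70, 11.73, 11.83, 12.01 and 12.15 in KO mice, against 9.92, 9.94, 10.08, 10.20 and 10.63 in WT mice. The lowest of all 20 KO mice (11.27) was above the highest of all 20 WT mice (11.23).

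The averaged difference of Fam213a was 1.25 ± 0.095 (SE) on the log2 scale, or 2.38-fold, with an adjusted p of 5.84e-11. In the separate comparisons it was 1.31 (adjusted p = 6.56e-04) in saline mice on day 3, 1.09 (0.0146) in saline mice on day 7, 0.87 (0.155) after doxorubicin on day 3 and 1.73 (5.58e-06) after doxorubicin on day 7. The interaction of genotype with doxorubicin, averaged over days, was 0.10 and did not pass (adjusted p = 0.961). By p-value Fam213a ranked 4 among all clusters.

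An unnamed noncoding cluster (TC1400001786.mm.1, chr14:41008703-41010252, minus strand) lies within the span of Fam213a on the same strand, so its signal cannot be separated from Fam213a transcripts. It rose with the gene. It had 7.14, 7.60, 7.76, 7.82 and 8.79 in KO-NaCl3 mice, against 6.62, 6.63, 6.79, 6.97 and 7.42 in WT-NaCl3 mice, where the ranges overlap. In KO-NaCl7 mice it had 7.32, 7.36, 7.40, 7.73 and 8.58, against 5.85, 6.16, 6.25, 6.71 and 7.12 in WT-NaCl7 mice, with no overlap. The doxorubicin groups did not overlap either, with 7.28 to 7.82 in KO-Dox3 mice against 6.19 to 7.16 in WT-Dox3 mice, and 7.44 to 8.61 in KO-Dox7 mice against 6.24 to 7.04 in WT-Dox7 mice. The averaged difference was 1.05 ± 0.13 (SE; adjusted p = 1.33e-05). The WT group means of 6.42 to 6.89 lie below the background limit, so the size of the change in RNA is not given. With the spread of each array's signals as a covariate it was 0.77 (adjusted p = 0.0606) and no longer passed.

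Ghitm (TC1400001747.mm.1, chr14:37120311-37135322, minus strand), which encodes an inner mitochondrial membrane protein of the TMBIM family needed for normal cristae, was the brightest member to differ. In saline mice on day 3 its signal was 13.92, 13.94, 14.01, 14.03 and 14.14 in KO mice, against 13.11, 13.17, 13.21, 13.44 and 13.52 in WT mice. On day 7 it was 13.62, 13.87, 14.06, 14.07 and 14.09 in KO mice given saline, against 13.08, 13.14, 13.20, 13.27 and 13.38 in WT mice given saline. Saline KO and WT mice did not overlap on either day. After doxorubicin it was 13.64, 13.73, 13.85, 13.89 and 13.98 in KO mice on day 3, against 13.05, 13.21, 13.22, 13.44 and 13.46 in WT mice. On day 7 after doxorubicin it was 13.24, 13.32, 13.68, 13.72 and 13.84 in KO mice, against 12.85, 12.91, 12.98, 13.04 and 13.16 in WT mice, again without overlap.

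Ghitm differed by 0.64 ± 0.05 (SE) on the log2 scale, or 1.56-fold, on average (adjusted p = 9.01e-10). The separate differences were close in size: 0.72 (adjusted p = 1.26e-03) and 0.73 (1.15e-03) in saline mice on days 3 and 7, and 0.54 (0.0957) and 0.57 (0.0908) after doxorubicin. Only 6 of the 65956 clusters had KO and WT mice apart, all in one direction, in each of the 4 comparisons (0.0091%), and 2 of the 269 were Fam213a and Ghitm. The other 4 were among the clusters left out of the window, Ear-ps2, Ear-ps9, Ear10 and the cluster of Ear12, Ear2 and Ear3, with averaged differences between 1.60 and 3.56. All 6 were higher in KO mice.

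2610528A11Rik (TC1400001746.mm.1, chr14:37102140-37114045, minus strand), listed in RefSeq with the synonym Gpr15l, encodes a secreted peptide that activates the receptor GPR15 on T cells and is known from epithelia of the gut and skin. Its cluster ends 6.3 kb from that of Ghitm and moved the other way. In saline mice on day 3 it had 4.70, 5.62, 6.03, 6.11 and 6.25 in KO mice, against 6.54, 6.65, 6.87, 6.99 and 8.03 in WT mice. On day 7 it had 5.35, 5.76, 5.94, 6.33 and 6.44 in KO mice given saline, against 7.03, 7.15, 7.44, 7.88 and 8.17 in WT mice given saline. KO and WT mice did not overlap in either, and no KO value reached the background limit. After doxorubicin it had 5.79, 5.96, 6.29, 6.31 and 6.74 in KO-Dox3 mice, against 5.89, 5.99, 6.07, 6.46 and 7.25 in WT-Dox3 mice. On day 7 it had 5.23, 5.55, 6.02, 6.52 and 6.75 in KO-Dox7 mice, against 6.78, 7.00, 7.20, 7.45 and 7.53 in WT-Dox7 mice. The groups overlapped on day 3 after doxorubicin and not on day 7.

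The averaged difference of 2610528A11Rik was -1.03 ± 0.16 (SE) on the log2 scale (adjusted p = 3.94e-04). Since the signal was below the background limit in every KO mouse, and in WT-Dox3 mice on average, the size of the change in RNA is not given. It was -1.57 (adjusted p = 0.0319) in saline mice on day 7, -1.27 (0.206) in saline mice on day 3, -1.18 (0.999) after doxorubicin on day 7 and -0.11 (0.939) after doxorubicin on day 3. The interaction with doxorubicin was 1.16 on day 3 (adjusted p = 0.75) and 0.78 averaged over days (0.841), so a difference between the treatments was not shown. With the spread of each array's signals as a covariate the averaged value was -0.71 (adjusted p = 0.349).

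**Figure D2:**
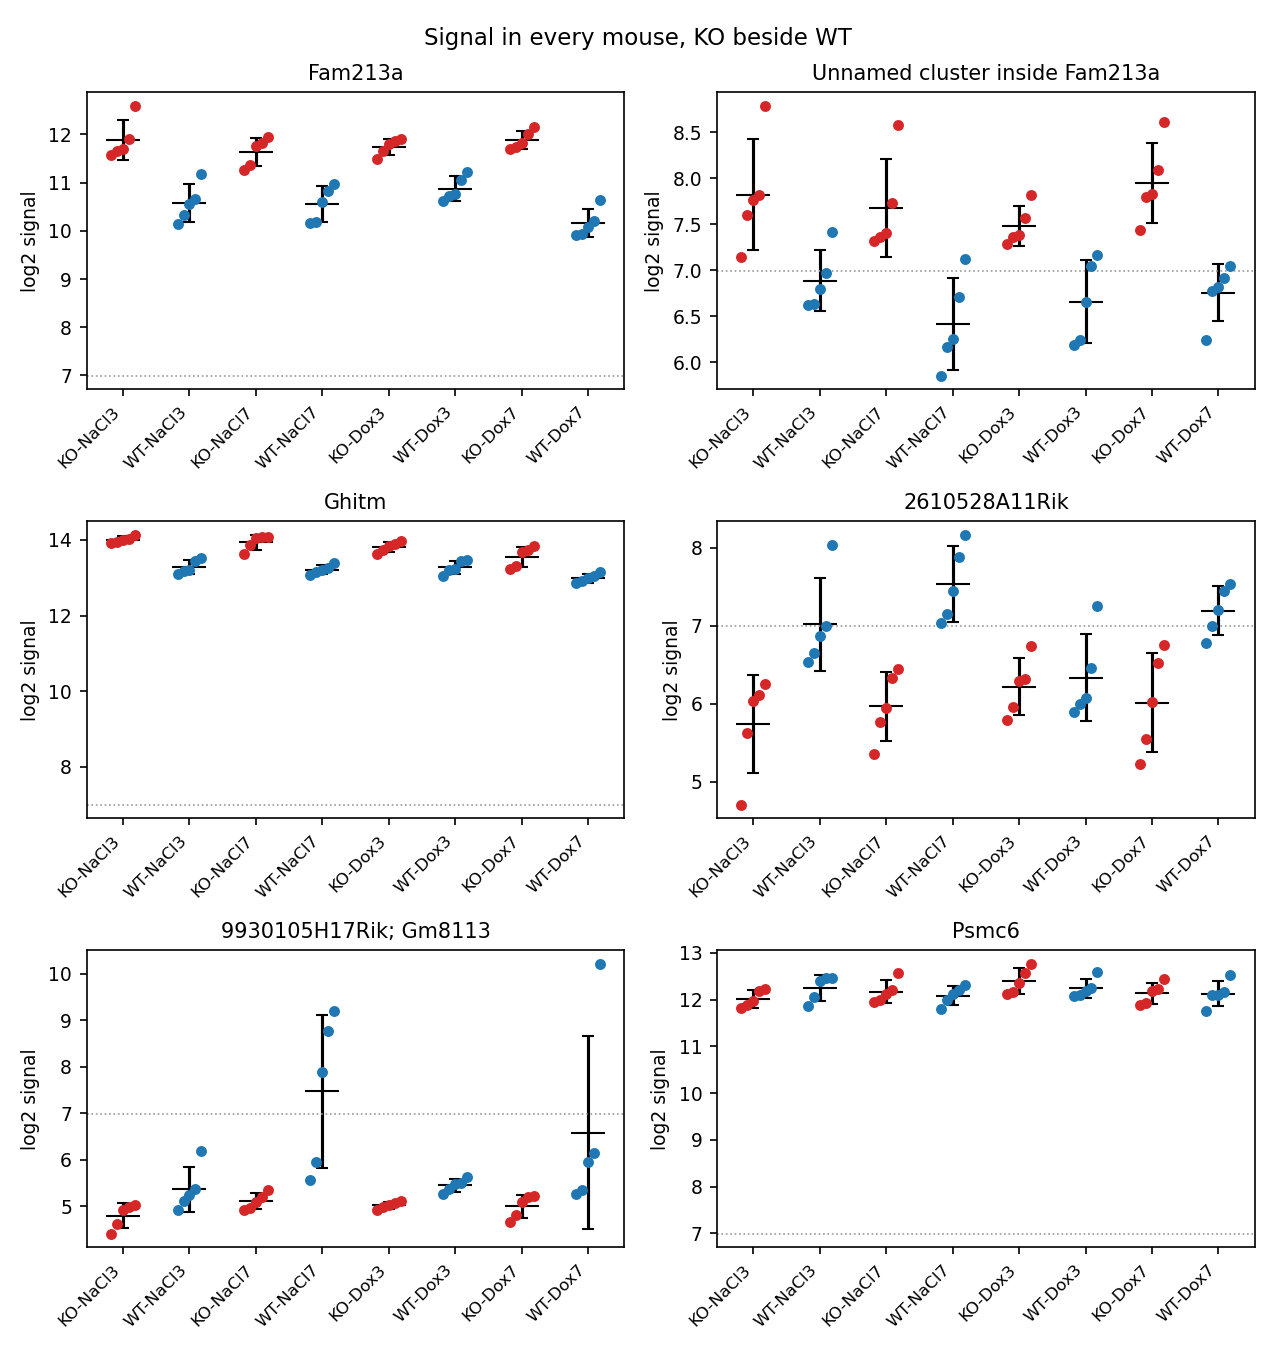
Log2 signal in every mouse (points; KO red, WT blue) with the mean and SD of each group of 5, for 6 clusters of the window; the dotted line is the background limit of 6.99. Fam213a and Ghitm have every KO mouse above every WT mouse of the same treatment and day, 2610528A11Rik lies lower in KO mice except on day 3 after doxorubicin, and Psmc6 shows overlapping groups.

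The cluster with the symbols 9930105H17Rik and Gm8113 (TC1400000453.mm.1, chr14:43925390-43933411, plus strand) also passed the test, and it was uneven among WT mice. Its mean exceeded the background limit only in WT-NaCl7 mice (7.47), and the other 7 group means lay between 4.79 and 6.58. Its KO values stayed between 4.40 and 5.34 in all 20 mice. In WT mice given saline, day 7 values were 5.57, 5.94, 7.88, 8.76 and 9.20, and on day 3 they were 4.92, 5.11, 5.24, 5.36 and 6.18. In WT mice given doxorubicin they were 5.26, 5.34, 5.94, 6.15 and 10.22 on day 7, and 5.26, 5.36, 5.47, 5.49 and 5.63 on day 3. Thus 4 WT mice, all from day 7, exceeded the background limit, and the other 16 did not. KO and WT mice overlapped only in saline on day 3. The averaged difference was -1.24 ± 0.29 (SE; adjusted p = 0.0271), which leaving out single mice moved between -1.36 and -1.01. It did not pass after a further quantile normalization (-1.26, adjusted p = 0.0576) or with the spread of each array's signals as a covariate (-1.09, 0.555), and none of the separate differences passed (adjusted p = 0.0823 to 0.999).

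The remaining 14 clusters that passed were dim, with mean signals between 3.30 and 5.27, and each was lower in KO mice by a small amount. Among them, 10 carry predicted-gene symbols (Gm followed by a number), as do 149 of the 269 clusters (55.4%). The others are 1700024B05Rik, Mir327 and 2 clusters without a symbol, TC1400001781.mm.1 and TC1400001890.mm.1. Neighbouring clusters can share sequence, so the 14 are not independent measurements. Gm10378 (chr14:42655938-42663605) had the lowest adjusted p of these (0.00632), with a difference of -0.42 ± 0.08 (SE). It had 4.23 to 4.5 (median 4.33) in KO-Dox3 mice against 4.35 to 5.29 (median 4.56) in WT-Dox3 mice, and 4.11 to 4.39 (median 4.20) in KO-NaCl7 mice against 4.44 to 5.13 (median 4.75) in WT-NaCl7 mice. Gm7995 differed by -0.37 (adjusted p = 0.0165), 1700024B05Rik by -0.27 (0.0180), Gm3371 by -0.30 (0.0224) and Gm9587 by -0.26 (0.0232). The precursor of miR-327 (Mir327, chr14:44947443-44947511) differed by -0.34 (adjusted p = 0.0432), and its signals are identical on all arrays to those of 1 other cluster, so they are not specific to this locus.

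The other dim clusters that passed were Gm8065 (-0.33), Gm17064 (-0.28), Gm3573 (-0.24), Gm9597 (-0.35), Gm5624 (-0.34), the cluster of Gm8229 and Gm3370 (-0.18), TC1400001781.mm.1 (-0.39) and TC1400001890.mm.1 (-0.25), with adjusted p between 0.0319 and 0.0434. Leaving out 1 mouse ended the call in 22 of 40 cases for Mir327, 21 for Gm17064, 21 for Gm9597, 20 for Gm8065, 17 for Gm3573, 17 for the cluster of Gm8229 and Gm3370, 14 for Gm5624, 5 for TC1400001781.mm.1 and 1 for TC1400001890.mm.1, and in none for Gm10378, Gm7995, 1700024B05Rik, Gm3371 and Gm9587. TC1400001781.mm.1 overlaps Sh2d4b, an adaptor gene whose own cluster did not pass (-0.14, adjusted p = 0.0533). Signals of this size lie within the range of the background probe sets.

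Among the dimmest clusters, signals were lower in KO mice across the whole array and not only near Sftpd. Of all clusters with a mean signal under 4, the median difference was -0.08 (22704 clusters), against -0.11 for the 129 of them in the window; between 4 and 5 it was -0.06 (16812 clusters), against -0.12 for the 88 in the window. Between 5 and 6, which is still below the background limit and holds Mir327 and TC1400001781.mm.1, it was 0.01 (7639 clusters), against -0.11 for the 9 in the window, 3 of which passed. Between 6 and 7 it was 0.05 (5169 clusters), against 0.03 for the 12 in the window. Between 7 and 9 it was 0.08 for all 6403 clusters and 0.07 for the 11 in the window. Above 9 the medians were 0.08 for all 7229 clusters and 0.07 for the 20 in the window. The interquartile range of the signals of an array was 2.53 to 2.86 (median 2.71) in KO mice and 2.37 to 2.73 (median 2.59) in WT mice. With this spread as a covariate, which was added after the data were seen, only Fam213a (1.05, adjusted p = 6.02e-07) and Ghitm (0.69, adjusted p = 1.8e-07) of the 19 passed. After a further quantile normalization 5 passed: Fam213a, Ghitm, the unnamed cluster inside Fam213a, 2610528A11Rik and Gm10378.

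**Figure D3:**
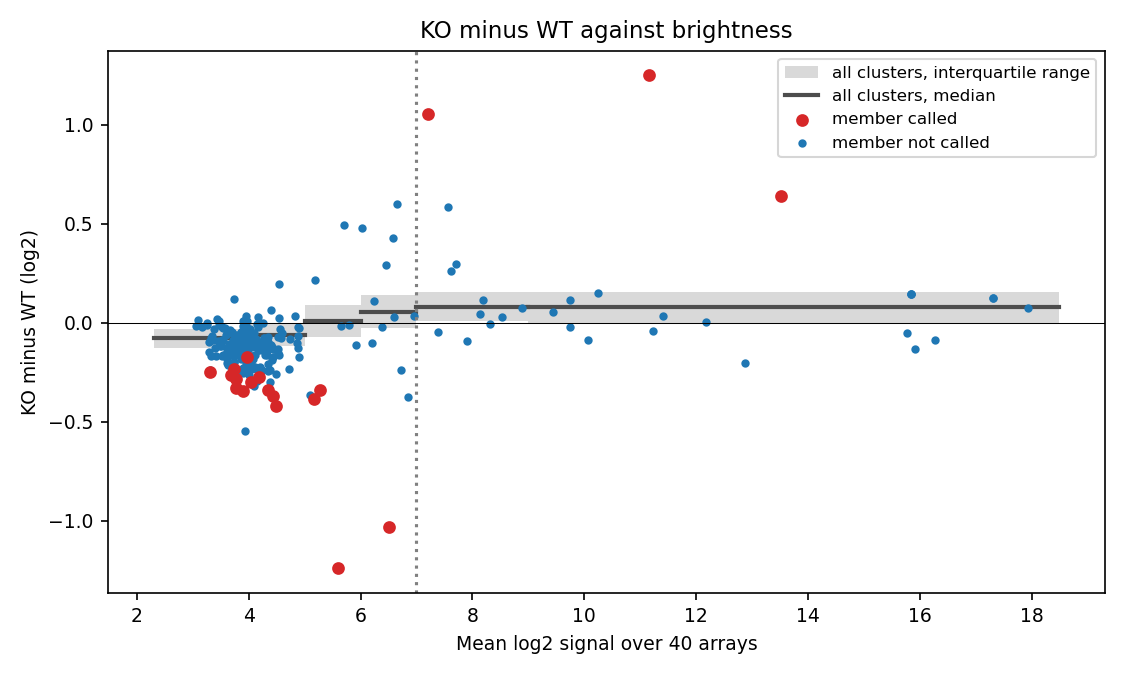
Difference between KO and WT mice (log2) against the mean log2 signal over 40 arrays, with the 269 clusters of the window as points (red where they passed the test) and all clusters of the array as grey bands (interquartile range and median in 6 ranges of brightness); the dotted line is the background limit. The dim red points lie below the grey median of their range, and Fam213a, the cluster inside it, Ghitm, 2610528A11Rik and the cluster of 9930105H17Rik and Gm8113 stand apart.

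Beside the shares of all clusters given above (1.95% called, 1.36% lower), 5 of 73 clusters to the left of Sftpd differed: 2610528A11Rik and Ghitm between 4 and 5 Mb away, and TC1400001781.mm.1, Fam213a and its inner cluster within 1 Mb. None of the 39 clusters between 1 and 4 Mb to the left differed. To the right, with the Ear clusters left out, 14 of 196 differed, all lower in KO mice. All 14 lay within 4 Mb, where 163 of the 269 clusters lie. Neighbours among them can share sequence, so they are not independent measurements. By distance, 3 of 40 differed in the first Mb, 3 of 45 in the second, 3 of 45 in the third and 5 of 33 in the fourth. None of the 33 in the fifth Mb did. Bins with several calls also lay elsewhere on chromosome 14, such as 7 of 40, all lower, between 15 and 16 Mb to the left and 8 of 79, all lower, between 13 and 14 Mb to the right, and no test compared bins. Over the window the median difference was -0.10, against -0.04 over all clusters, and 44 of 269 clusters (16.4%) were higher in KO mice, against 38.1% of all clusters.

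Clusters past the threshold were not confined to the window. Of all chromosomes, 14 had the highest share called, 112 of 2828 clusters (3.96%), and the next was 19 with 46 of 1769 (2.60%). Outside the window, the called clusters of chromosome 14 had differences between -1.32 (13.0 Mb to the right) and 2.37 (14.8 Mb to the right). Of the called clusters with a difference over 0.5 in size, 5 lay among the 269 (1.86%) and 13 among the 2547 outside the window (0.510%), against 94 of all 65956 (0.143%). No test compared these shares.

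Of the 31 clusters with a mean above background 28 did not pass the KO against WT test. Psmc6, a subunit of the proteasome's ATPase ring, had a difference of 0.00 (95% interval -0.15 to 0.15). Ero1l, the oxidase of disulfide formation in the endoplasmic reticulum, had 0.03 (-0.17 to 0.23), and Tspan14, a tetraspanin whose cluster ends 26.9 kb to the left of Fam213a, had -0.02 (-0.20 to 0.15). Fermt2, the integrin activator kindlin, had 0.03 (-0.14 to 0.20), and Styx, a pseudophosphatase, 0.07 (-0.01 to 0.16). Gnpnat1, an enzyme of UDP-N-acetylglucosamine synthesis, had 0.12 (-0.05 to 0.28), and the phospholipase Ddhd1, whose cluster also carries Mir5131, had 0.11 (-0.04 to 0.26). These intervals leave out differences of the size seen for Ghitm.

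Other listed genes were below the background limit. The retinal genes Rgr, Cdhr1, Lrit1 and Lrit2 had mean signals of 3.53, 3.93, 4.26 and 3.25, the neuregulin Nrg3 3.61, the liver enzyme of S-adenosylmethionine synthesis Mat1a 4.04, and the prostaglandin receptors Ptger2 and Ptgdr 4.89 and 4.17. Gpr137c, Dydc1 (4.42), Dydc2 (3.66) and Sh2d4b (4.17) were also dim, and none of these passed the KO against WT test. Of the 35 symbols in the lists by role 26 were found among the 269, on 25 clusters. Prxl2a and Ero1a, counted among those not found, are the RefSeq names of Fam213a and Ero1l. Of the 25 clusters 2 differed between KO and WT mice, Fam213a and Ghitm (1.95% of all clusters did). The brightest cluster with 1 symbol in each of the 10 bins of 1 Mb was, from left to right, Ghitm, Gm24404 (6.21), Gm20641 (4.14), Gm10713 (15.77), Fam213a, Gm22823 (15.91), Gm25208 (17.30), Ang-ps1 (7.57), Gm16439 (8.14) and Gm1821 (17.94), and of these Ghitm and Fam213a passed the KO against WT test. In 8 clusters, Gm25208 and Gm22823 among them, the signals were identical to those of other clusters on every array, so they are not specific to their loci.

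The separate comparisons of KO with WT mice held few calls. In saline mice on day 3, 2 of 269 passed, Fam213a and Ghitm (0.0258% of all clusters did). In saline mice on day 7, 4 passed (0.0773% of all): the same 2, the unnamed cluster inside Fam213a and 2610528A11Rik. After doxorubicin on day 7 Fam213a alone passed (0.00606% of all clusters), and on day 3 none did by limma (0.0106% of all), where 30 of the 269 had an unadjusted p below 0.05, 7 higher and 23 lower in KO mice (11.2%, against 8.43% of all clusters at that p). An ANOVA of the 2 groups without moderation left none past the adjusted threshold in any of the 4. The same ANOVA called 0 of all 65956 clusters in each, so the lack of calls is not particular to the 269. The paper's methods name an ANOVA between conditions but do not give these settings, so the authors' own test may differ from this one.

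**Figure D4:**
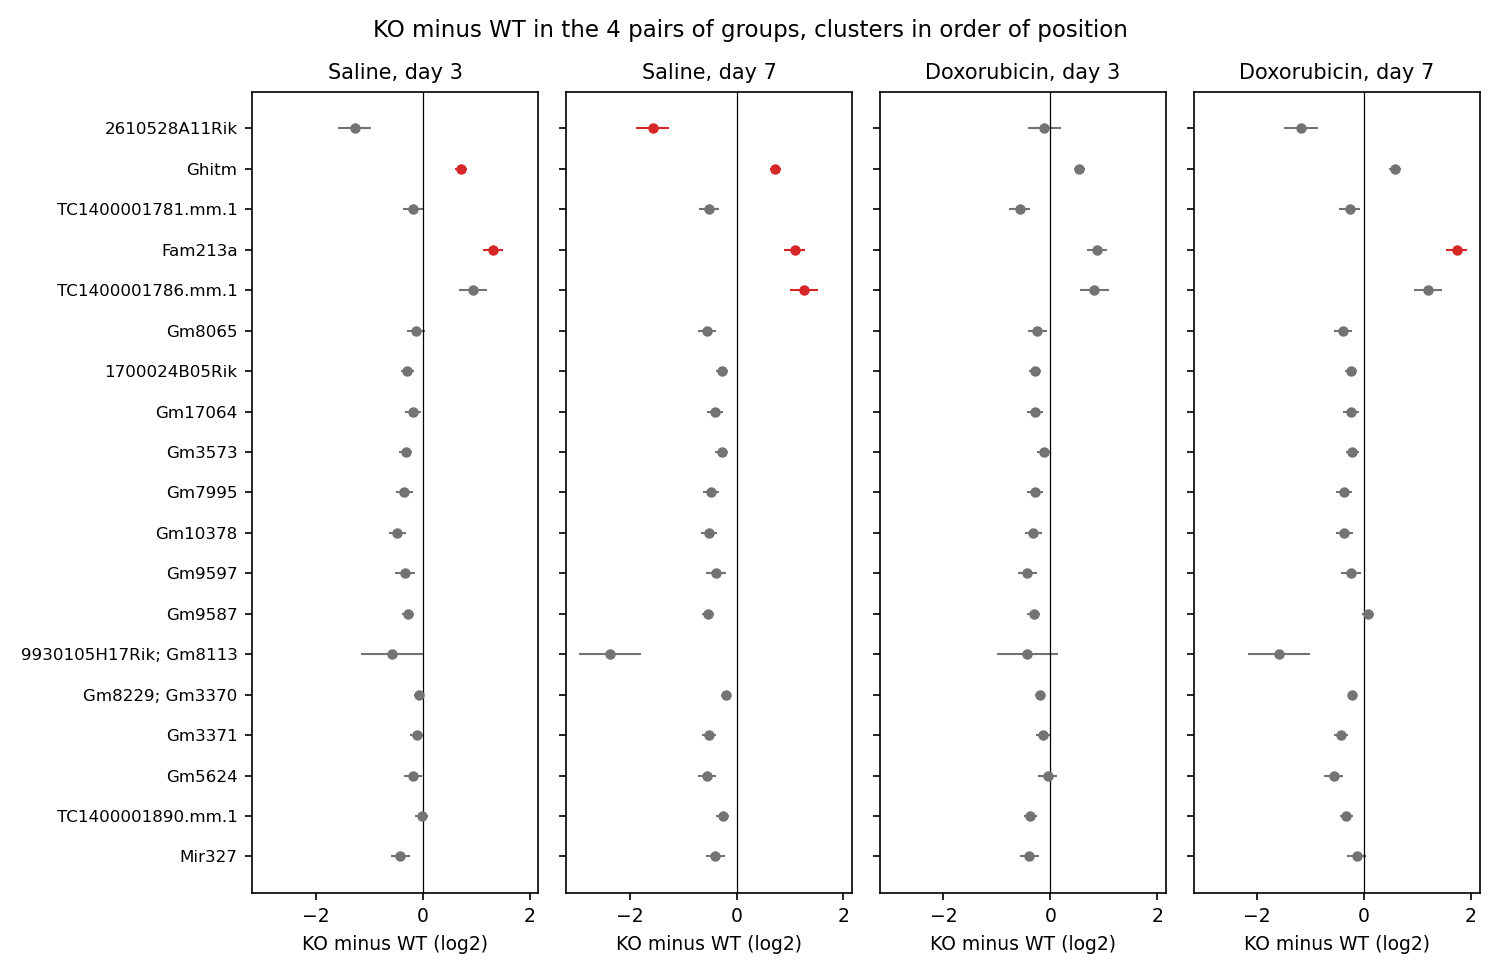
Difference between KO and WT mice (log2 ± SE) in the 4 pairs of groups for the 19 clusters that passed the averaged test, listed in order of position; red points passed the test within that pair. Fam213a lies between 0.87 and 1.73 and Ghitm between 0.54 and 0.73 in every panel, whereas 2610528A11Rik is close to 0 on day 3 after doxorubicin.

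Doxorubicin is a topoisomerase poison that damages dividing crypt cells. On day 3, with genotypes averaged, 8 of 269 clusters were higher than in saline mice and none was lower (2.97%, against 13.2% of all clusters in either direction). Ccser2, a coiled-coil protein gene, had the lowest adjusted p. It had 10.63, 10.71, 10.73, 10.84 and 11.20 in KO-Dox3 mice, against 10.04, 10.05, 10.09, 10.23 and 10.42 in KO-NaCl3 mice. In WT mice it had 10.48, 10.58, 10.58, 10.84 and 11.08 after doxorubicin, against 10.00, 10.11, 10.18, 10.25 and 10.25 after saline, so neither genotype overlapped. The difference was 0.60 (adjusted p = 7.08e-07), and on day 7 it was 0.09 (adjusted p = 0.716).

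The largest rise on day 3 was that of the cluster of Gm7324 and Rbmxl1 (0.95, adjusted p = 2.65e-06), with 8.89 to 9.26 in KO-Dox3 mice against 7.48 to 8.33 in KO-NaCl3 mice, and 8.13 to 9.15 in WT-Dox3 mice against 7.73 to 8.61 in WT-NaCl3 mice. RefSeq places a pseudogene, Gm7324, here and Rbmxl1 on chromosome 8. A noncoding cluster labelled Cdv3, a gene that RefSeq places on chromosome 9, rose by 0.60 (adjusted p = 5.28e-05), the pseudogene Gm7206 by 0.58 (4.42e-04), the pseudogene Gm8317 by 0.57 (0.00502), the unnamed TC1400001885.mm.1 by 0.61 (0.0175) and the pseudogene Gm6580 by 0.26 (0.0229). Copies of this kind share sequence with genes elsewhere, and their signal may include those genes' transcripts. The group means of TC1400001885.mm.1 (5.80 to 6.73) and Gm6580 (6.25 to 6.64) all lay below the background limit. For these clusters the values are differences of signal and not sizes of change in RNA. Ero1l rose by 0.43 (adjusted p = 0.0333), with 11.47 to 12.33 in KO-Dox3 mice against 11.08 to 11.67 in KO-NaCl3 mice, and 11.36 to 12.07 in WT-Dox3 mice against 10.86 to 11.45 in WT-NaCl3 mice. Leaving out single mice ended the call for Ero1l in 8 of 40 cases and for Gm6580 in 2. A further quantile normalization ended the calls for Gm7206 (0.33, adjusted p = 0.132), Ero1l (0.41, 0.138) and Gm6580 (0.21, 0.104). The spread covariate ended those for TC1400001885.mm.1 (0.46, 0.110) and Gm6580 (0.24, 0.0703).

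On day 7 after doxorubicin 8 clusters were lower than in saline mice and none was higher (2.97%, against 2.07% of all clusters in either direction). The angiogenin family made up 5 of them. Angiogenins are secreted ribonucleases of the pancreatic ribonuclease superfamily, and some are antimicrobial in the mouse gut. The cluster of Ang3 and Ang5 (chr14:43957069) had 3.76, 4.27, 4.71, 4.89 and 5.02 in KO-Dox7 mice, against 6.49, 7.34, 7.92, 8.27 and 8.46 in KO-NaCl7 mice, with no overlap. In WT mice it had 4.46, 4.49, 5.27, 6.14 and 6.59 after doxorubicin, against 6.16, 6.47, 6.62, 6.82 and 7.02 after saline, and the ranges overlapped. With genotypes averaged it fell by 2.20 on the log2 scale (adjusted p = 3.27e-04). It was -3.17 in KO mice (adjusted p = 9.33e-04) and -1.23 in WT mice (0.461), and the difference between the genotypes, -1.94, did not pass (adjusted p = 0.785). The day 7 means of this cluster exceeded the background limit only in KO-NaCl7 mice (7.70, against 6.62 in WT-NaCl7 mice), so these are differences of signal and not sizes of change in RNA.

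Ang6 fell by 1.53 (adjusted p = 7.72e-04), with 4.64 to 5.19 in KO-Dox7 mice against 5.52 to 8.05 in KO-NaCl7 mice, and 4.41 to 6.40 in WT-Dox7 mice against 5.70 to 6.48 in WT-NaCl7 mice. Its day 7 mean exceeded the background limit in KO-NaCl7 mice (7.09) alone. The pseudogenes fell by 1.40 (Ang-ps1, adjusted p = 0.00142), 1.12 (Ang-ps2, 0.00693) and 0.99 (Ang-ps3, 0.00686). On day 7 the means of Ang-ps2 and Ang-ps3 exceeded the limit only in KO-NaCl7 mice (7.81 and 7.53), and Ang-ps1 exceeded it in each group but KO-Dox7 (6.76). Their sequences are related, so the 5 clusters are not independent measurements. Of the Ear clusters left out here, Ear-ps9, Ear10 and Ear-ps2 lie between Ang-ps2 and Ang-ps1. In the KO against WT test none of the 5 passed. The averaged differences were 0.48 (Ang3 and Ang5, adjusted p = 0.242), 0.49 (Ang6, 0.119), 0.58 (Ang-ps1, 0.0696), 0.60 (Ang-ps2, 0.0533) and 0.43 (Ang-ps3, 0.0990). Each of the 5 had a higher mean in KO mice with saline on both days and with doxorubicin on day 3. On day 7 after doxorubicin each mean was lower in KO mice (Ang3 and Ang5: 4.53, against 5.39 in WT mice).

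The other 3 that were lower on day 7 after doxorubicin were single genes. Txndc16, a thioredoxin-domain protein of the endoplasmic reticulum, had 6.31, 6.36, 6.61, 6.83 and 6.97 in KO-Dox7 mice, against 7.15, 7.15, 7.29, 7.34 and 7.56 in KO-NaCl7 mice, and 6.67 to 7.08 in WT-Dox7 mice against 6.88 to 7.33 in WT-NaCl7 mice. It fell by 0.48 (adjusted p = 0.00320). Its means after doxorubicin, 6.62 in KO-Dox7 and 6.83 in WT-Dox7 mice, lay below the background limit. The fall of Txndc16 is thus a difference of signal and not a size of change in RNA. Tspan14, a partner of the sheddase ADAM10, fell by 0.54 (adjusted p = 0.0104), and both genotypes showed it: 9.18 to 9.88 in KO-Dox7 mice against 9.77 to 10.29 in KO-NaCl7 mice, and 9.14 to 9.86 in WT-Dox7 mice against 9.98 to 10.28 in WT-NaCl7 mice. Ghitm fell by 0.30 (adjusted p = 0.0252), a call that was lost in 7 of 40 cases of leaving out 1 mouse, with trend and robust variances (adjusted p = 0.0533) and after a further quantile normalization (0.164).

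**Figure D5:**
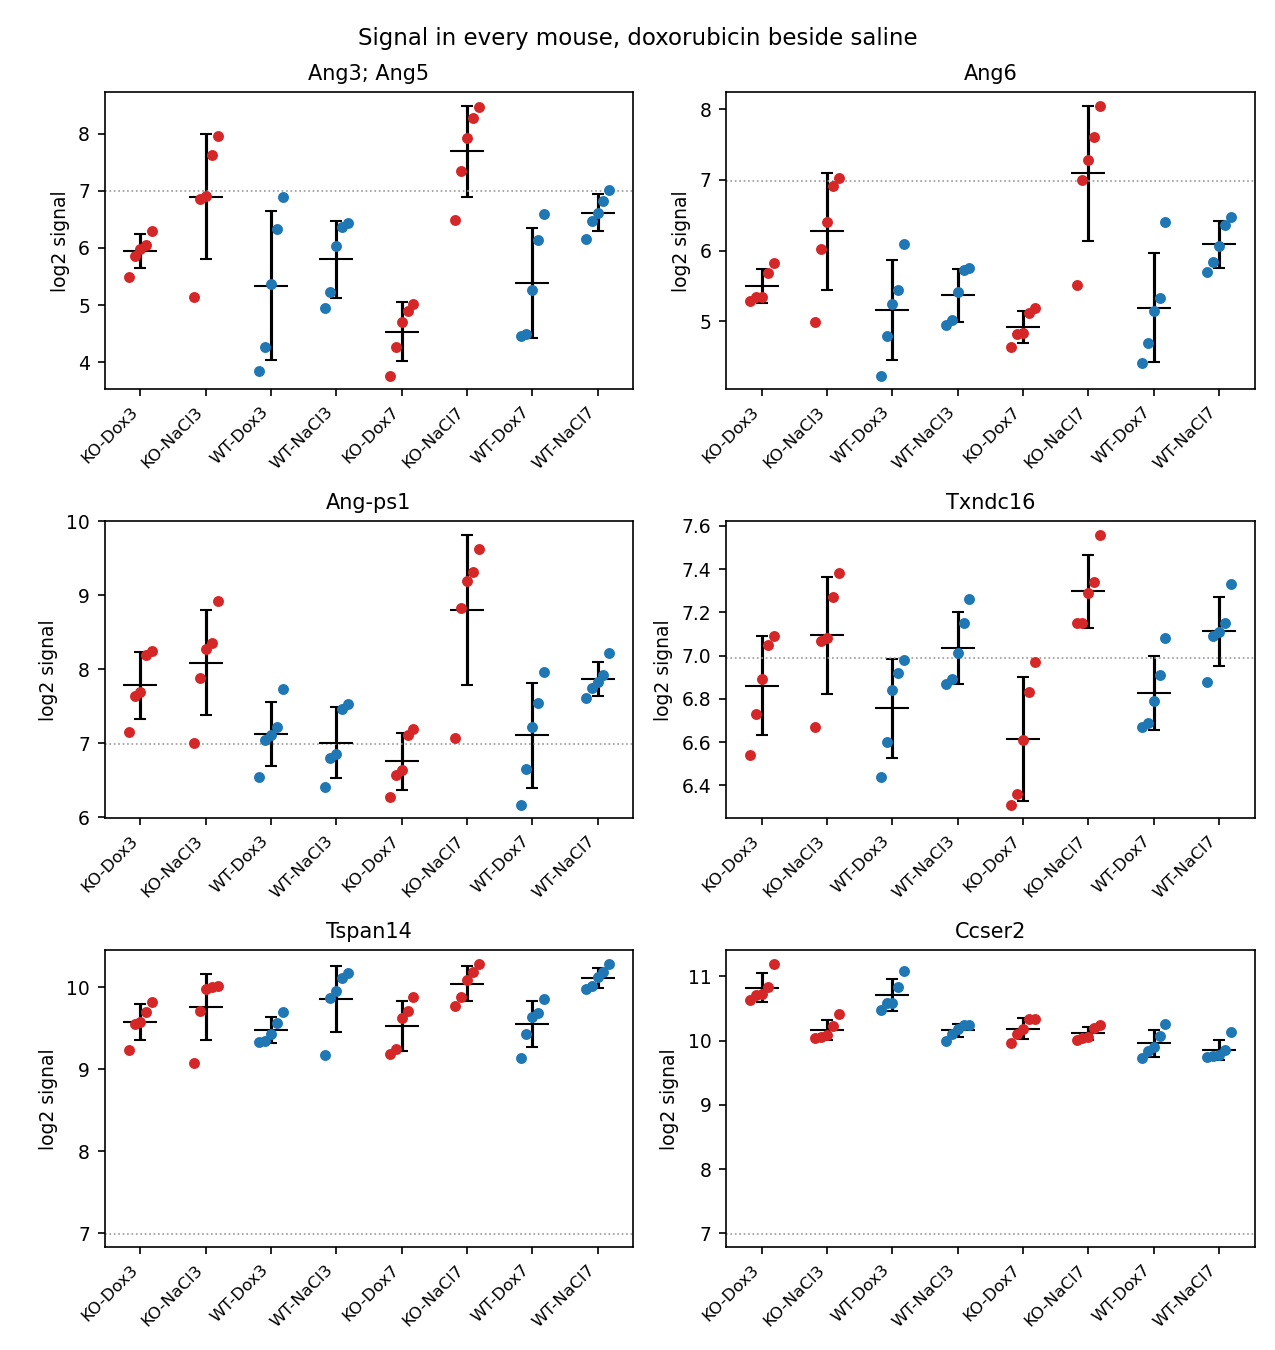
Log2 signal in every mouse (points; KO red, WT blue) with the mean and SD of each group of 5, with doxorubicin left of saline, for 6 clusters of the window; the dotted line is the background limit of 6.99. Ccser2 is higher in the Dox3 groups, and on day 7 the angiogenin clusters, Txndc16 and Tspan14 are lower after doxorubicin.

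No cluster of the window, and none on the array (0%), passed limma's test of the interaction between genotype and doxorubicin averaged over days. At an unadjusted p below 0.05 there were 13 of 269 (4.83%, against 5.85% of all clusters). An ANOVA of all 8 groups without moderation also gave 0 of 269 after adjustment (0% of all clusters).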

How the data were processed

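Jejunal RNA of 40 mice was hybridised to Mouse Transcriptome Arrays, 1 per mouse. The deposited values are log2 signals per transcript cluster. Per the labels the authors used RMA in Affymetrix Expression Console and the Transcriptome Analysis Console, whereas the paper's methods name limma, with a normexp background step followed by quantile scaling. The deposited tables of the KO mice also hold the authors' mean log2 signals, used only to check the sample map (each correlated best with its own group), and fold changes and p-values of their own comparisons, which were not used. Positions were read as GRCm38, since 98.6% of clusters with 1 RefSeq symbol overlapped that gene in GRCm38.p6; no build is given in the sources used here.

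The 65956 clusters that are not controls were fitted with limma 3.58.1 in R 4.3.3 (8 group means, contrasts, empirical Bayes, 32 residual degrees of freedom, Benjamini-Hochberg adjustment). Nothing was normalized again for the results in the text. The script was tested on simulated data. Precision is limited by 5 mice per group. The p-values set each difference of group means against the spread between mice, estimated from all 8 groups together. Mice were treated as independent, although litters are not given. The members and the gene lists were chosen with earlier results of these data known. Named were Sftpd, each member past the KO against WT threshold, up to 5 per direction for each day of doxorubicin, the brightest 1-symbol member of each 1-Mb bin and the listed genes by role. The remaining members past a doxorubicin threshold were added after their values were seen. Alternatives were another test, filter, variance model, scaling and window, array weights, and leaving out each mouse.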

Additional observations from a re-analysis of the deposited data

Results flagged for a closer look

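In each group of 5 mice, the 19 clusters that differed between KO and WT mice were searched for a mouse whose distance from the nearest other exceeded Dixon's critical share of the group's range. Of 152 groups 8 held one, and chance gives about 1 in 20, or 7.6. The widest was the cluster of 9930105H17Rik and Gm8113 in mouse 102 of WT-Dox7 (10.22, against 5.26 to 6.15 in the other 4). The other 7 were dim: TC1400001781.mm.1 in mouse 200 of KO-NaCl7 (4.74, next 4.94), Gm8065 in mouse 206 of WT-NaCl7 (4.23, next 4.02), 1700024B05Rik in mouse 292 of KO-NaCl3 (3.65, next 4.10), Gm17064 in mouse 296 of WT-NaCl7 (3.76, next 3.98), Gm9597 in mouse 46 of WT-NaCl3 (3.53, next 4.06), and Gm9587 in mouse 124 of KO-Dox7 (3.93, next 3.71) and in mouse 206 of WT-NaCl7 (4.48, next 3.87). Fam213a, Ghitm and 2610528A11Rik had none.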

How the results depend on the processing

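Fam213a and Ghitm passed the averaged KO against WT test under each alternative run on them, between 1.05 and 1.31 and between 0.59 and 0.70, and 2610528A11Rik and the unnamed cluster inside Fam213a in all but the spread covariate. No named difference changed sign. The alternatives that changed only the window or the choice of members kept the main fit. They could not change the value or adjusted p of a cluster, and only the other alternatives and the omissions of single mice could. The count of 19 (7.06%, 1.95% of all clusters) became 7 of 72 among clusters above the median signal, adjusted over fewer clusters (9.72%, 1.14% of all). It was 50 with array weights (18.6%, 7.16%), 5 after quantile normalization (1.86%, 0.224%) and 2 with the spread covariate (0.743%, 0.0318%). It was 15 with each array centred on its median (5.58%, 3.51%) and 20 with trend and robust variances (7.43%, 1.92%). By an ANOVA of all 8 groups without moderation it was 25 (9.29%, 2.82%). Against 1.95% of all clusters, it was 10 of 156 within 2.5 Mb (6.41%), 32 of 579 within 10 Mb (5.53%) and 5 of the 40 above background in at least 1 group (12.5%). That last filter passes some clusters only through the groups where they are high, among them 2610528A11Rik. In saline mice the count of 2 on day 3 became 0 by the ANOVA of the 2 groups (0% of all clusters) and by a limma fit of the 2 groups alone (0.00455% of all). It became 1 after quantile normalization (0.372%, 0.0243% of all) and 1 within 2.5 Mb (0.641%, 0.0258%). The count of 4 on day 7 became 0 by the ANOVA (0% of all) and by that fit (0.00303% of all), and 21 with array weights (7.81%, 2.80% of all). It became 2 after quantile normalization (0.743%, 0.0334%), 2 within 2.5 Mb (1.28%, 0.0773%) and 1 with the covariate (0.372%, 0.00758%). After doxorubicin, array weights gave 2 on day 3 (0.743%, 0.0182% of all, 0 before) and 2 on day 7 (0.743%, 0.00606% of all). On day 7 the ANOVA gave 0 (0% of all, 1 before). Doxorubicin against saline had given 8 on each day. On day 3 it gave 14 of 72 above the median signal (19.4%, 26.4% of all), 1 within 2.5 Mb (0.641%, 13.2%) and 46 within 10 Mb (7.94%, 13.2%). On day 7 it gave 1 within 2.5 Mb (0.641%, 2.07%) and 14 within 10 Mb (2.42%, 2.07%). Without single mice it gave 7 to 12 on day 3 (11.8% to 13.6% of all) and 7 to 10 on day 7 (1.34% to 3.07% of all). Where no construction shows it, the cause was not tested.

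Leaving out 1 mouse moved the count of 19 between 11 and 35: 11 without mouse 2 of KO-Dox3, 102 of WT-Dox7 or 206 of WT-NaCl7, 12 without 116 of KO-Dox7, 254 or 292 of KO-NaCl3, 42263 of WT-Dox7 or 14 of WT-NaCl3, 31 without 162 of KO-Dox3, and 35 without 136 of KO-Dox7, 182 of KO-NaCl3 or 216 of WT-Dox7. For saline on day 7 it gave 1 to 6 (0.00758% to 0.391% of all clusters). The count was 1 without 272 of KO-NaCl7 or 28 or 206 of WT-NaCl7, and 2 without 114 or 224 of KO-NaCl7. After doxorubicin on day 3 the count was 0 to 2 (0.00303% to 0.0713% of all), with 2 without 232 of WT-Dox3. On day 7 after doxorubicin it was 1 to 2 (0.00303% to 0.00758% of all), with 2 without 136 or 42299 of KO-Dox7 or 42295 of KO-NaCl7. The dim calls rest on signals within the range of the background probe sets. No paired analysis was possible because mouse numbers are not shared between groups.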
